A study of Mus musculus with 20 samples.

Results

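The genes described here encode muscle ubiquitin ligases or their substrate receptors: the RING ligases Trim63, Trim54 and Trim55, the F-box protein Fbxo32, and the ankyrin repeat and SOCS box proteins Asb2, Asb10, Asb11, Asb14, Asb15 and Asb18. The 10 genes were picked by symbol, by matching the Ensembl IDs of the count table to GENCODE vM21, out of 55335 annotated genes. All 10 were found and all 10 passed the filter on low counts that left 14878 genes for testing. The RNA was cardiac, from C57BL/6N animals that were 3 to 5 months old, ate an NIH-31 diet and carried osmotic minipumps for 2 weeks. The 4 groups of 5 libraries were OGFOD1-knockout (KO) mice given isoproterenol, KO mice given vehicle, wild-type (WT) mice given isoproterenol, and WT mice given vehicle. Vehicle was phosphate-buffered saline with sodium ascorbate, and the isoproterenol mice received the same solution with the drug added. OGFOD1 is a prolyl hydroxylase of the ribosomal protein Rps23, and isoproterenol is a beta-adrenergic agonist used to provoke cardiac hypertrophy. The sources used here do not give the way in which Ogfod1 was deleted or whether the deletion was limited to a cell type.

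Ubiquitin ligases choose the proteins that are tagged with ubiquitin and handed to the proteasome. Striated muscle has ligases of its own: the muscle RING finger proteins MuRF1, MuRF2 and MuRF3, encoded by Trim63, Trim55 and Trim54, sit at the titin M-line, the Z-disc and on microtubules, and the F-box protein atrogin-1, encoded by Fbxo32, works in a complex with Skp1 and Cul1. Trim63 and Fbxo32 are the textbook genes of muscle atrophy and are induced there by FoxO transcription factors. Asb proteins are substrate receptors that join elongin B and C and the scaffold Cul5. Asb2 targets filamins for degradation in muscle, while the substrates of several other family members are poorly known.

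Total counts were 14609808 to 43671055 per library, and 55.5% to 61.9% of them fell on mitochondrially encoded genes. The members had between 210 and 12759 counts per library, and for the lower of these counts the counting error is not small beside the spread between libraries of a group. Ogfod1 measured 2.39 to 4.12 CPM (counts scaled to library size, with TMM factors) in the KO isoproterenol libraries and 2.49 to 4.08 CPM in the KO vehicle libraries, against 18.7 to 21.8 CPM in the WT isoproterenol libraries and 16.9 to 20.9 CPM in the WT vehicle libraries. Summed CPM of 8 cardiomyocyte markers ranged from 17550 to 23650 in KO isoproterenol hearts, 23590 to 25850 in KO vehicle hearts, 21740 to 23460 in WT isoproterenol hearts and 25360 to 31760 in WT vehicle hearts. The tissue label was thus matched by cardiomyocyte transcripts, and 9 skeletal muscle markers summed to 1.43 to 3.16 CPM over all libraries. KO isoproterenol replicate 5 (cardiomyocyte sum 17550, smooth muscle and pericyte sum 1632 CPM against 760.6 at most in any other library) and WT vehicle replicate 2 (cardiomyocyte sum 31760) stood apart. Results without 1 or both of them are given for several calls that this changed. Nothing in the labels ties libraries to separate mice, and p-values therefore measure only library-to-library spread, which may be technical. In bulk tissue, fewer cells of a type and less RNA per cell cannot be told apart.

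The start regions of 4 members are shown because these genes, among the 8 members with a RefSeq window, passed in a comparison of KO with WT (Asb2 and Asb18), had the smallest adjusted p for isoproterenol (Asb10) or are a well known target of FoxO factors (Trim63). Trim55 and Fbxo32 had no window in the table used. Each window holds 250 bases before and 50 bases after the RefSeq start on GRCm38.p6, written 5′ to 3′ on the gene's strand: chr4:134314870-134315169 (plus) for Trim63, chr5:24540929-24541228 (minus) for Asb10, chr1:90014617-90014916 (minus) for Asb18 and chr12:103355952-103356251 (minus) for the upstream start of Asb2. Capitals mark the FoxO core GTAAACA, the E-box CANNTG, the MEF2 consensus and the CArG box, each searched on both strands (the FoxO match of Trim63 is on the opposite strand and reads TGTTTAC here).
Trim63: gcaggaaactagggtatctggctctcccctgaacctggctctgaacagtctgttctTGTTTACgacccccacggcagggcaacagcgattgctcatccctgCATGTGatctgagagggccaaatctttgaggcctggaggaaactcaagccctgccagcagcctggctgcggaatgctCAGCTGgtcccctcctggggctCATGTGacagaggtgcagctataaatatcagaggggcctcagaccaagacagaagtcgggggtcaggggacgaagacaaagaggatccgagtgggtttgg
Asb10: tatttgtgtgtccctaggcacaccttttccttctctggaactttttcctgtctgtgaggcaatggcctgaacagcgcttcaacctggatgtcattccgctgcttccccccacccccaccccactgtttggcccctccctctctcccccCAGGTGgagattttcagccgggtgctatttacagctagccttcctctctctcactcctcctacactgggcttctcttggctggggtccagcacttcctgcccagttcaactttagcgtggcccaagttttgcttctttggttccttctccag
Asb18: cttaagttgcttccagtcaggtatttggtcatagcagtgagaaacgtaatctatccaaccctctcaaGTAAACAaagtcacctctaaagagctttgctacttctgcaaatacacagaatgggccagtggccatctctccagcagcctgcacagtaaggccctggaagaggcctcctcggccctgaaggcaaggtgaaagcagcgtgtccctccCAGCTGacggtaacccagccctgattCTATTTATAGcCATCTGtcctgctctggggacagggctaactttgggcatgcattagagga
Asb2: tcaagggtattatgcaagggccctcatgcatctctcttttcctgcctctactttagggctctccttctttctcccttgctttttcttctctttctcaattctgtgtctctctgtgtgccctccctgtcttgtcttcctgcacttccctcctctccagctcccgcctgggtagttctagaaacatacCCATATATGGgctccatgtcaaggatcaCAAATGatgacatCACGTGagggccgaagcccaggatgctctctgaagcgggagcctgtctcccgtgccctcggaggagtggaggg

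Among these windows the FoxO core stood at position -194 from the start of Trim63 and at -183 from the start of Asb18. RefSeq windows were found for 8 of the 10 members (9 windows, since Asb2 has 2 starts), and 2 of the 9 held the FoxO core, against 3.65% of 32851 mouse windows of the same length. MEF2 matches were in the windows of Asb14 and Asb18 (3.19% of all windows), and a CArG box, CCATATATGG, in that of the upstream start of Asb2 but not of its other start (1.63%). An E-box was present in all 9, as in 72.3% of all windows, and the cAMP response element TGACGTCA in none, against 1.79%. In Asb14 and Asb18 the MEF2 match overlapped the TATA box motif TATAAA on the opposite strand, which reads TTTATA on the gene's strand. On either strand that motif was in 4 of the 9 windows, against 13.6% of all windows. These are letter matches only.

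Levels were set side by side per kilobase of exon. Asb2 was the most abundant of the 10, at 70.7 ± 9.31 CPM per kilobase (SD over all 20 libraries), followed by Trim54 at 38.9 ± 5.83. The ranges of these genes did not overlap with each other or with that of the next gene. A middle tier held Asb11 (15.5 CPM per kilobase), Trim63 (15.0), Trim55 (14.3), Fbxo32 (12.6) and Asb14 (11.3), in which neighbouring genes overlapped in 3 or 4 of the 4 groups and so were not separated by level. Below it stood Asb10 at 8.76, Asb15 at 5.35 and Asb18 at 3.93 CPM per kilobase; Asb14 and Asb10 overlapped in 1 group, and the last 3 did not overlap within any group. With the length of the longest transcript in place of all annotated exon bases, Asb14 (14.0) came before Fbxo32 (12.6), and Trim63 (22.6) and Trim55 (14.7) no longer overlapped. With that length the ranges of Trim54 and Asb11 did overlap over the 20 libraries (Trim54 from 27.2, Asb11 up to 30.8 CPM per kilobase), though not within any group.

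**Figure D1:**
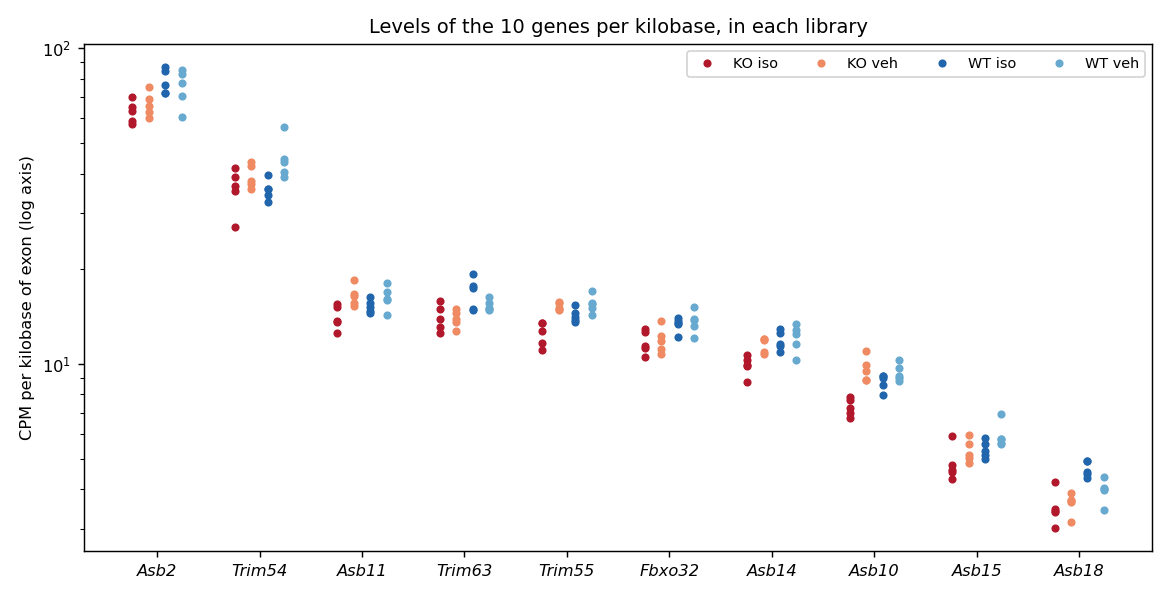
CPM per kilobase of annotated exon on a log axis for each of the 10 genes, with 1 point per library and the 4 groups side by side (iso, isoproterenol; veh, vehicle). Asb2 and Trim54 lie above all the others, and Asb15 and Asb18 lie lowest, at averages of 5.35 and 3.93 CPM per kilobase.

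Differences between groups were small, the largest being a log2 fold change of -0.41, and most pointed down. With isoproterenol, 3 of the 10 genes fell in KO hearts (Trim55, Asb10 and Asb11) and 1 fell in WT hearts (Trim54), while none rose (quasi-likelihood test in edgeR, adjusted p under 0.05 over all tested genes). Of all tested genes 9.03% passed in KO, 4.29% as lower, and 8.76% passed in WT, 4.12% as lower. Averaged over both genotypes, which uses the same libraries again, 4 of 10 fell (Trim54, Trim55, Asb10 and Asb11), against 18.8% of all genes that passed in either direction and 9.07% that fell. The median log2 fold change of the 10 genes was -0.13 in that comparison, against 0.01 over all genes. The 8 cardiomyocyte markers had a median of -0.16 there, with 5 lower and 1 higher. Fibroblast markers (6 of 8 higher, median 0.28) and macrophage markers (5 of 6 higher, median 0.34) rose in the same comparison. The part of tissue composition in the falls of the ligase genes was not tested.

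**Figure D2:**
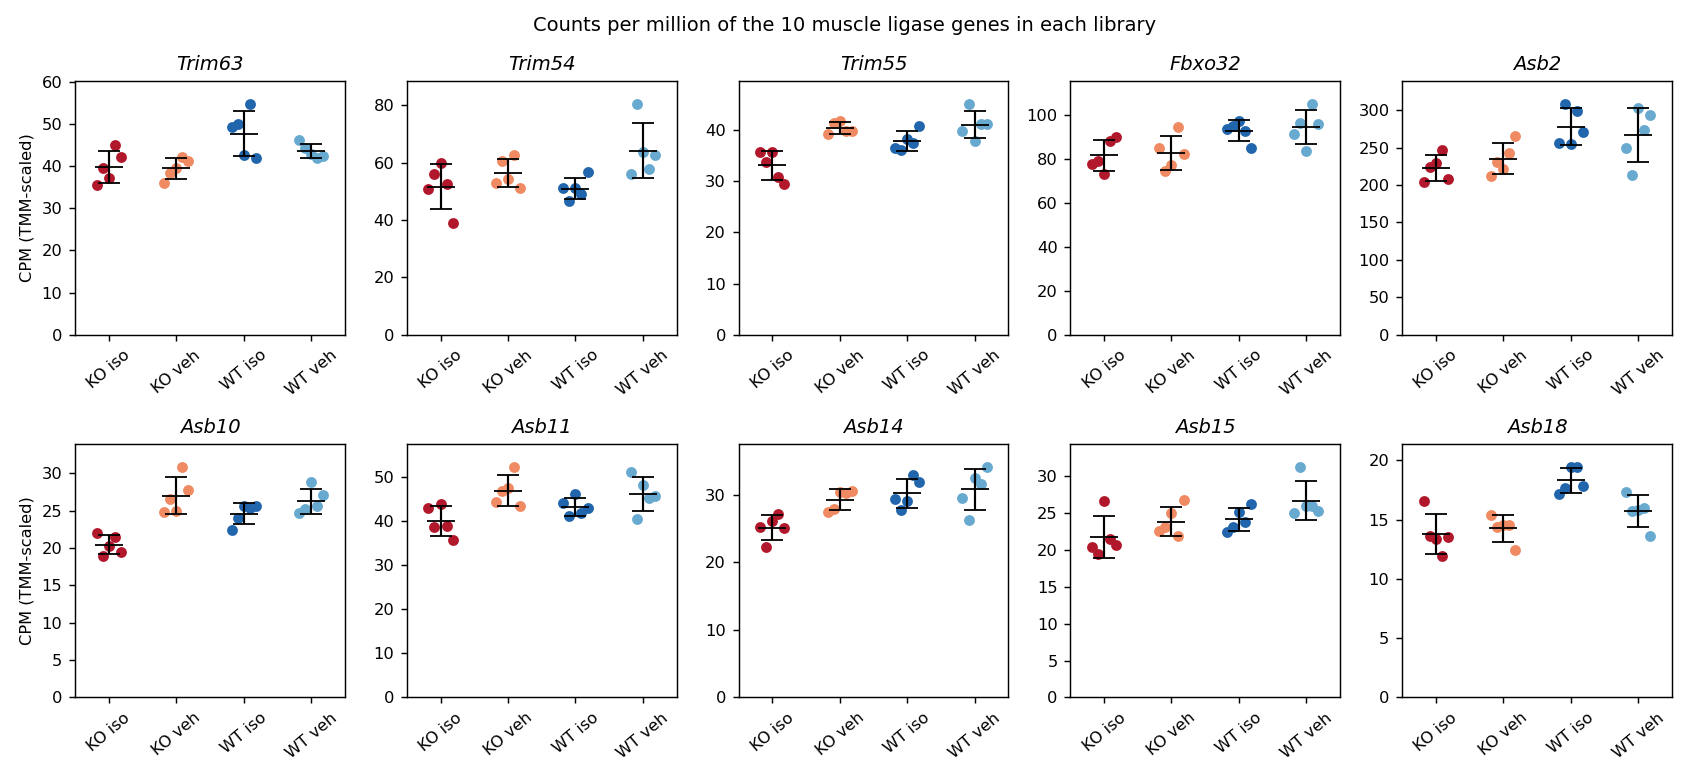
CPM of each gene (linear axis from 0) in each library, by group; the horizontal mark and bars are the mean ± SD of 5 libraries. For Trim55, Asb10 and Asb14 the KO isoproterenol points lie below all KO vehicle points, and for Asb18 they lie below all WT isoproterenol points.

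Between genotypes, Asb2 and Asb18 fell in KO hearts, and the other 8 genes had small negative values that did not pass. All 10 log2 fold changes of KO over WT, averaged over treatments, were negative (median -0.16, range -0.28 to -0.05), against 48.4% of all tested genes and a median of 0.00 over all genes. The 2 genes that passed compare with 0.847% of all genes in either direction and 0.464% as lower; 8 of 10 had an unadjusted p under 0.05, against 12.8% of all genes. Under isoproterenol 1 of 10 passed, Asb18, against 0.181% of all genes, and 7 of 10 had an unadjusted p under 0.05, against 13%. Under vehicle 0 of 10 passed in edgeR or in DESeq2, against 0.128% of all genes in edgeR, and 2 of 10 (Fbxo32 and Asb2) had an unadjusted p under 0.05, against 8.31%. The cardiomyocyte markers had a median of -0.09 in the averaged comparison of KO with WT, all 8 of them negative and none past the threshold in edgeR, and 2 of 8 fibroblast markers were higher (median 0.17). Medians there were 0.43 for smooth muscle and pericyte, 0.14 for atrial, 0.08 for macrophage and -0.06 for endothelial markers, none past the threshold. Under vehicle the atrial markers summed to 898 to 1130 CPM in KO, against 669.2 to 877.4 CPM in WT. The part of tissue composition in these values was not tested.

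The KO isoproterenol and WT isoproterenol libraries did not overlap in CPM for 5 of the 10 genes (Trim55, Asb2, Asb10, Asb14 and Asb18), each lower in KO, against 2.14% of all genes. Between KO vehicle and WT vehicle hearts 0 of 10 were free of overlap, against 2.02%. For isoproterenol in KO 3 of 10 did not overlap (Trim55, Asb10 and Asb14), against 8.06%, and for isoproterenol in WT 0 of 10, against 8.05%. These comparisons share libraries in pairs, so that their counts are not independent of each other.

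**Figure D3:**
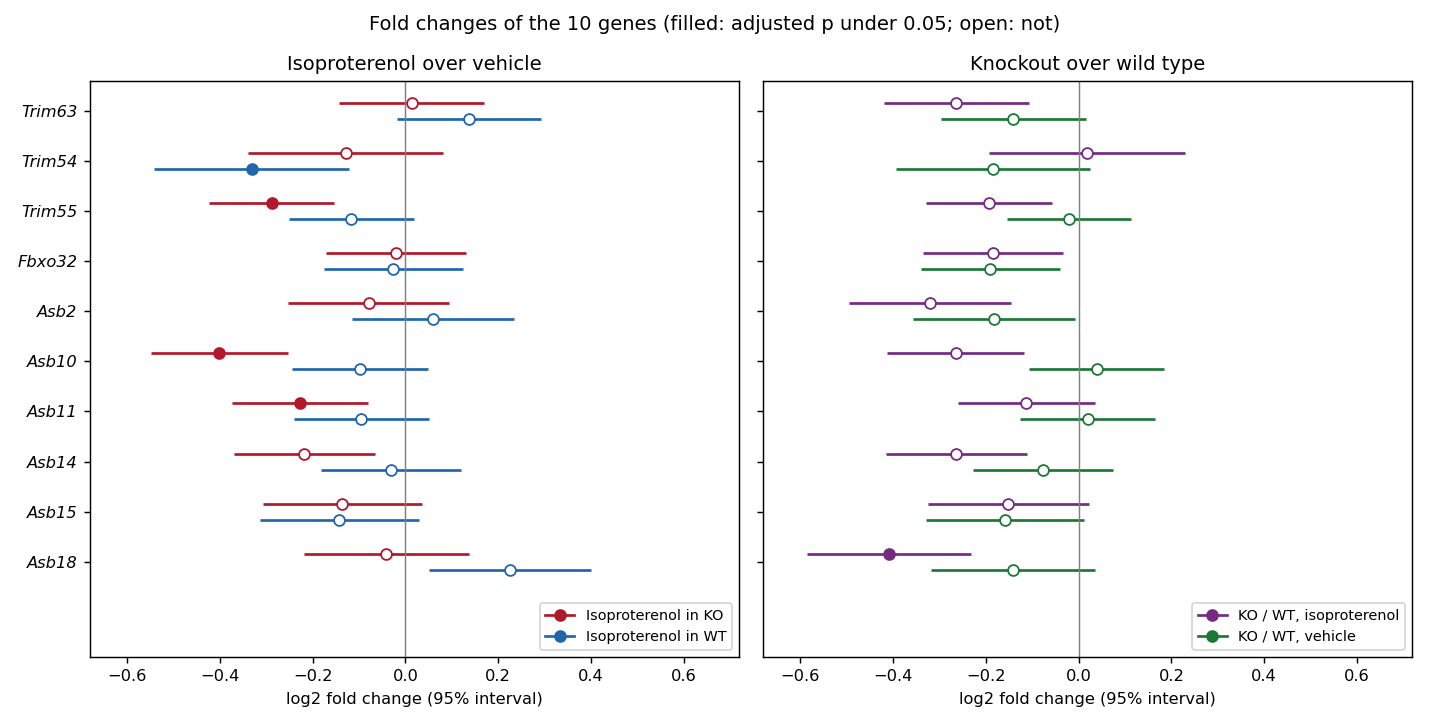
log2 fold changes of the 10 genes with 95% intervals from the edgeR fit, isoproterenol over vehicle on the left and KO over WT on the right; filled points passed at an adjusted p under 0.05. Most points lie left of 0, and the widest separation of genotypes in the response to isoproterenol is that of Asb10 (-0.40 in KO and -0.10 in WT).

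Among the MuRF genes, Trim54 and Trim55 fell with isoproterenol averaged over genotypes, and Trim63 (0.08, adjusted p = 0.339) did not pass. Trim54 (ENSMUSG00000062077.14; GRCm38 chromosome 5, 31116712 to 31137630, plus strand) encodes MuRF3, which binds microtubules and the Z-disc. Its level was 51.3, 46.5, 51.2, 49.2 and 56.7 CPM in WT isoproterenol libraries, against 56.1, 80.4, 63.8, 57.9 and 62.6 CPM in WT vehicle libraries. In KO it measured 50.7, 55.9, 60, 52.5 and 39 CPM with isoproterenol, against 53.1, 60.6, 54.4, 62.6 and 51.2 CPM with vehicle. The groups overlapped in both genotypes, the highest of all 20 values was that of WT vehicle replicate 2 and the lowest that of KO isoproterenol replicate 5, the libraries with the highest and lowest cardiomyocyte marker sums. The log2 fold change was -0.33 in WT (SE 0.0991, edgeR adjusted p = 0.0365) and -0.13 with an adjusted p of 0.476 in KO. Without WT vehicle replicate 2 the value in WT was -0.24 (adjusted p = 0.106), and the call was also lost without WT vehicle replicate 3 (-0.33, adjusted p = 0.0625) or 5 (-0.34, adjusted p = 0.0566) and without any of WT isoproterenol replicates 1 to 4 (-0.34 to -0.30, adjusted p of 0.0610 to 0.0879). In all 11 other settings of the processing the change in WT passed (-0.34 to -0.20, adjusted p of at most 0.043). These include the fit without both libraries that stood apart. The average over genotypes was -0.23 (SE 0.0700, adjusted p = 0.0221). This call held without each library in turn, and the value was -0.14 (adjusted p = 0.0416) once both libraries that stood apart were left out. Between genotypes Trim54 had 0.02 under isoproterenol and -0.19 under vehicle (adjusted p = 0.967 and 0.645).

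Trim55 (ENSMUSG00000060913.6; chromosome 3, 19644474 to 19692421, plus strand) encodes MuRF2, which associates with titin and microtubules during myofibril assembly. It measured 35.8, 33.7, 35.7, 30.8 and 29.4 CPM in KO isoproterenol libraries, against 39.2, 41.4, 41.8, 39.7 and 39.8 CPM in KO vehicle libraries, with no overlap. In WT the isoproterenol libraries had 36.4, 36, 38.3, 37.4 and 40.9 CPM, against 39.9, 45.1, 37.8, 41.1 and 41.2 CPM with vehicle, and the groups overlapped. The log2 fold change was -0.29 in KO (SE 0.0636, adjusted p = 0.00373), a call that held without each library in turn, and -0.12 in WT (SE 0.0634, adjusted p = 0.275). The difference between these responses was -0.17 (SE 0.0898, adjusted p = 0.668) and did not pass. All 5 KO isoproterenol libraries also lay below all 5 WT isoproterenol libraries (log2 fold change -0.19, SE 0.0639), which did not pass over all genes (adjusted p = 0.205), while under vehicle the value was -0.02 (adjusted p = 0.970). An intronic gene on the same strand, BC002189, had 1078 counts in all, against 16749 for Trim55.

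Trim63 (ENSMUSG00000028834.13; chromosome 4, 134315120 to 134329629, plus strand) encodes MuRF1, the atrophy ligase that targets thick filament proteins and troponin I. It measured 35.4, 39.5, 37, 44.9 and 42.2 CPM in KO isoproterenol libraries, against 36, 38.4, 39.5, 42.2 and 41.1 CPM with vehicle. In WT it had 49.3, 50, 42.5, 54.7 and 41.9 CPM with isoproterenol, against 46.1, 44.3, 42.7, 42 and 42.3 CPM with vehicle. Both pairs overlapped, and 3 of 5 isoproterenol libraries lay above the vehicle mean in each genotype. The log2 fold change was 0.01 in KO (95% interval -0.14 to 0.17, adjusted p = 0.943) and 0.14 in WT (-0.02 to 0.29, adjusted p = 0.268). All 10 KO libraries lay below the mean of the WT group of the same treatment. The average of KO over WT was -0.20 (SE 0.0521) and narrowly missed the threshold (adjusted p = 0.0581), while DESeq2 (adjusted p = 0.0224) and limma-voom (adjusted p = 0.0413) called it, as did the fit of 18 libraries that drops KO isoproterenol replicate 5 and WT vehicle replicate 2 (adjusted p = 0.0400). In all it passed in 5 of 10 other settings and in 4 of 20 fits with a library left out (adjusted p up to 0.130). The MuRF genes are close paralogs, and reads shared between them may have been dropped or split in the authors' counting.

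Fbxo32, the other classical atrophy gene, had no detectable response to isoproterenol. Fbxo32 (ENSMUSG00000022358.7; chromosome 15, 58175879 to 58214932, minus strand) measured 78, 79.2, 73.5, 88.1 and 90 CPM in KO isoproterenol libraries, against 85.2, 74.8, 77.4, 94.9 and 82.4 CPM in KO vehicle libraries. In WT it had 93.7, 95.3, 97.6, 93.1 and 85 CPM with isoproterenol, against 91.7, 96.7, 83.9, 105 and 96 CPM with vehicle. The groups of each pair overlapped almost fully, with log2 fold changes of -0.02 in KO (95% interval -0.17 to 0.13, adjusted p = 0.907) and -0.03 in WT (-0.18 to 0.12, adjusted p = 0.869). Every KO isoproterenol library lay below the WT isoproterenol mean, and 4 of 5 KO vehicle libraries lay below the WT vehicle mean. The averaged log2 fold change was -0.19 (SE 0.0502, adjusted p = 0.0741), which passed in DESeq2 (adjusted p = 0.0270), limma-voom (adjusted p = 0.0326) and the fit of 18 libraries (adjusted p = 0.0331). In all it passed in 5 of 10 other settings and in 2 of 20 fits with a library left out (adjusted p up to 0.136).

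Asb2 was lower in KO hearts and did not pass for isoproterenol. Asb2 (ENSMUSG00000021200.14; chromosome 12, 103321142 to 103356001, minus strand), the receptor that directs filamins to degradation, measured 203, 224, 230, 247 and 208 CPM in KO isoproterenol libraries, against 256, 308, 255, 299 and 271 CPM in WT isoproterenol libraries. Under vehicle it had 213, 231, 222, 243 and 266 CPM in KO, against 249, 214, 303, 274 and 294 CPM in WT. The genotypes did not overlap under isoproterenol and overlapped under vehicle. The averaged log2 fold change of KO over WT was -0.25 (SE 0.0581, adjusted p = 0.0306), made up of -0.32 under isoproterenol (adjusted p = 0.0970) and -0.18 under vehicle (adjusted p = 0.566). That call stood close to the threshold: it was lost without any of 11 single libraries (KO isoproterenol replicates 1, 2 and 5, KO vehicle replicates 1, 2 and 3, WT isoproterenol replicates 2 and 4, and WT vehicle replicates 3, 4 and 5), at -0.25 to -0.23 and adjusted p of 0.0517 to 0.0717. Without WT vehicle replicate 2, KO over WT under isoproterenol passed in edgeR (-0.32, adjusted p = 0.0449). This was the only 1 of 20 fits with a library left out in which it passed (adjusted p up to 0.247), and 3 of 11 other settings called it. The response to isoproterenol was -0.08 in KO (95% interval -0.25 to 0.09) and 0.06 in WT (-0.11 to 0.23). Flna and Flnc, which encode filamins, had log2 fold changes of KO over WT of 0.37 and 0.30, neither past the threshold in edgeR (adjusted p = 0.559 and 0.198).

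Asb10 gave the clearest response to isoproterenol of the 10. It encodes a family member with the shared SOCS box, and variants of the human gene have been studied in glaucoma. Asb10 (ENSMUSG00000038204.13; chromosome 5, 24532697 to 24540978, minus strand) measured 22, 18.9, 20.3, 21.5 and 19.5 CPM in KO isoproterenol libraries, against 24.9, 26.5, 24.9, 30.9 and 27.8 CPM in KO vehicle libraries. In WT it had 22.3, 24.1, 25.6, 25.3 and 25.6 CPM with isoproterenol, against 24.6, 25.2, 28.8, 25.6 and 27.1 CPM with vehicle. The KO groups did not overlap and the WT groups did. Its log2 fold change was -0.40 in KO (SE 0.0696, adjusted p = 2.81e-04), a fall that held without each library in turn and in all 11 other settings, and -0.10 in WT (SE 0.0691, adjusted p = 0.430). The difference between the responses, -0.30 (SE 0.0980), had an unadjusted p of 0.00419 and an adjusted p of 0.518, so that it did not pass over all genes, where 0% passed in edgeR. Under isoproterenol the KO libraries lay below all WT libraries (log2 fold change -0.27, adjusted p = 0.106), while under vehicle the value was 0.04 (adjusted p = 0.939).

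With isoproterenol in KO, Asb11 fell, and Asb14 narrowly missed the threshold. Asb11, whose protein sits at the endoplasmic reticulum and targets the pro-apoptotic protein Bik in human cells (ENSMUSG00000031382.14; chromosome X, 164436994 to 164459170, plus strand), measured 42.9, 38.7, 43.9, 39 and 35.6 CPM in KO isoproterenol libraries, against 44.3, 46.8, 47.5, 52.3 and 43.5 CPM with vehicle. In WT it had 44.2, 41.1, 46.2, 41.9 and 42.9 CPM with isoproterenol, against 51.1, 40.5, 48.2, 45.1 and 45.8 CPM with vehicle. Both pairs overlapped. The log2 fold change was -0.23 in KO (SE 0.0690, adjusted p = 0.0343) and -0.10 in WT at an adjusted p of 0.441. Its call in KO was lost without KO isoproterenol replicate 2, 4 or 5 or KO vehicle replicate 2, 3 or 4 (-0.23 to -0.18, adjusted p of 0.0634 to 0.124), in the fit of 18 libraries (-0.18, adjusted p = 0.0774) and in a fit of only the 2 groups (-0.23, adjusted p = 0.0574). The average over genotypes, -0.16 (SE 0.0488, adjusted p = 0.0191), held without each library in turn. KO over WT gave -0.11 under isoproterenol and 0.02 under vehicle (adjusted p = 0.518 and 0.977).

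Asb14 (ENSMUSG00000021898.15; chromosome 14, 26894557 to 26915258, plus strand), a family member whose substrates are poorly known, measured 25.2, 22.2, 26.1, 27.1 and 25 CPM in KO isoproterenol libraries, against 27.4, 27.8, 30.4, 30.2 and 30.5 CPM in KO vehicle libraries. In WT it had 29.4, 27.7, 29.1, 32.8 and 31.9 CPM with isoproterenol, against 29.5, 26.2, 32.5, 31.6 and 34.1 CPM with vehicle. The KO groups did not overlap, the WT groups did, and KO isoproterenol libraries also lay below all WT isoproterenol libraries. The log2 fold change in KO, -0.22 (SE 0.0718), missed the threshold at an adjusted p of 0.0527, and in WT the value was -0.03 (adjusted p = 0.844). DESeq2 called the change in KO (adjusted p = 0.0354), as did 4 other settings (adjusted p of 0.0270 to 0.0491). In edgeR without WT vehicle replicate 2, the change in KO also passed (-0.22, adjusted p = 0.0308). So did isoproterenol averaged over genotypes (-0.15, adjusted p = 0.0254, against 0.0840 with that library). KO over WT averaged over treatments passed there as well (-0.20, adjusted p = 0.0434, against 0.112 with that library). Of 20 fits with a library left out, the change in KO passed in 5 (adjusted p up to 0.152). Isoproterenol averaged over genotypes passed in only 1 of the 20 (up to 0.160) and in 2 of 10 other settings. KO over WT averaged over treatments also passed in only 1 of 20 (up to 0.2135) and in 2 of 10 other settings.

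Asb18 set the genotypes apart most sharply under isoproterenol. Little is known of the function of this muscle-expressed family member (ENSMUSG00000067081.13; chromosome 1, 89950220 to 90014666, minus strand). It measured 16.6, 13.7, 13.4, 11.9 and 13.5 CPM in KO isoproterenol libraries, against 17.2, 17.7, 19.4, 19.5 and 17.9 CPM in WT isoproterenol libraries. Under vehicle it had 15.4, 14.4, 14.6, 14.6 and 12.4 CPM in KO, against 17.3, 15.7, 15.9, 16 and 13.6 CPM in WT. All 5 KO isoproterenol values lay below all 5 WT isoproterenol values, and the vehicle groups overlapped. The log2 fold change of KO over WT was -0.41 under isoproterenol (SE 0.0832, adjusted p = 0.0268) and -0.14 under vehicle (SE 0.0830, adjusted p = 0.681). The call under isoproterenol was lost without KO isoproterenol replicate 2 or 4 or WT isoproterenol replicate 3, 4 or 5 (-0.42 to -0.36, adjusted p of 0.0539 to 0.119) and in a fit of only the 2 groups (-0.41, adjusted p = 0.0719). Averaged over treatments the value was -0.28 (SE 0.0588, adjusted p = 0.0166), which held without each library in turn. Isoproterenol gave 0.23 in WT (SE 0.0823, adjusted p = 0.0850), with all 5 libraries above the vehicle mean, and -0.04 in KO (adjusted p = 0.825). The difference of these responses, -0.27 (SE 0.118), did not pass (adjusted p = 0.607).

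Asb15 (ENSMUSG00000029685.15; chromosome 6, 24528144 to 24573164, plus strand), studied mainly in skeletal muscle cells, passed in no comparison. It averaged 21.7 ± 2.85 CPM in KO isoproterenol hearts, 23.8 ± 1.98 CPM in KO vehicle hearts, 24.1 ± 1.52 CPM in WT isoproterenol hearts and 26.7 ± 2.60 CPM in WT vehicle hearts (SD, n = 5 each). Its log2 fold change for isoproterenol was -0.14 in both KO and WT (adjusted p = 0.333 and 0.299), and that of KO over WT was -0.15 under isoproterenol and -0.16 under vehicle (adjusted p = 0.436 and 0.616). None of the 10 genes passed for the difference between the isoproterenol responses of KO and WT, in which 2 of 10 (Asb10 and Asb18) had an unadjusted p under 0.05, against 7.68% of all genes.

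The rest of the ligase machinery was described over 8 lists of genes, whose counts for isoproterenol averaged over genotypes stand beside 9.76% higher and 9.07% lower of all tested genes. Of 10 tested Asb genes outside the set, 1 fell with isoproterenol averaged over genotypes, Asb5 (log2 fold change -0.37, adjusted p = 0.00812), a muscle-expressed family member, and their median was -0.05. Other ligases described in muscle gave 4 higher and 2 lower of 21. Among them Cblb (0.27), a ligase of receptor signalling, and Mdm2 (0.20), the ligase of p53, rose, while Rnf207 (-0.25), a cardiac ligase linked to repolarization, and Trim72 (-0.20), known as the membrane repair protein MG53, fell. Of 10 kelch-repeat adaptors of Cul3 ligases, Klhl40 rose (0.67, SE 0.0822, adjusted p = 7.28e-07) and Kbtbd12 fell (-0.29, adjusted p = 3.46e-04). Klhl40, which stabilizes nebulin and thin filament proteins in skeletal muscle, rose in KO (0.63) and in WT (0.70).

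Few genes of the complexes in which these proteins work passed. Of 13 tested core genes of cullin ligases 1 was lower, Dcun1d1 (-0.15, adjusted p = 0.0399), which promotes the attachment of Nedd8 to cullins, and none was higher. The scaffold genes had 0.01 (Cul1) and -0.08 (Cul5), and the adaptor genes 0.08 (Skp1a), 0.08 (Elob) and 0.04 (Eloc), none past the threshold. Of 14 genes of ubiquitin, its activating enzyme and conjugating enzymes, 0 passed in edgeR for isoproterenol averaged over genotypes, where 18.8% of all genes did.

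Genes known upstream of Trim63 and Fbxo32 gave 1 lower of 20, the class IIa histone deacetylase gene Hdac5 (-0.20, adjusted p = 0.00920). Foxo1 (-0.05, adjusted p = 0.617) and Foxo3 (-0.16, adjusted p = 0.0775) did not pass in the average over genotypes. In WT alone 2 of 20 were lower, where 4.12% of all tested genes were lower. These were Hdac5 (-0.30, adjusted p = 0.0140) and Foxo3 (-0.37, adjusted p = 0.00698), the second named after its value was seen. Foxo3 had 0.06 in KO (adjusted p = 0.751). The difference of its responses was 0.43 and did not pass (adjusted p = 0.518). Other genes known as FoxO targets, mostly of autophagy, gave 7 higher and 1 lower of 16 with a median of 0.17, where 9.76% of all genes were higher and 9.07% lower. Those that rose included the mitophagy receptor gene Bnip3 (0.38, adjusted p = 2.28e-04), the lysosomal protease gene Ctsl (0.24), the autophagosome gene Gabarapl1 (0.27) and the stress gene Gadd45a (0.47), whereas the ligase genes Trim63 (0.08) and Fbxo32 (-0.02) did not pass in the same comparison. Bnip3 is also known as a hypoxia target.

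Substrates and binding partners of the ligases gave 2 higher and 8 lower of 24 with isoproterenol averaged over genotypes, with a median of -0.10, where 9.76% of all genes were higher and 9.07% lower. Myl2 (-0.43) and Myl3 (-0.43), the ventricular myosin light chains, Myoz2 (-0.52), a Z-disc protein, and Myh7 (-1.76), the slow myosin heavy chain, had the smallest p of those that fell, while Tcap (0.38), a titin cap protein, named after its value was seen, was among those that rose. Many of these are also cardiomyocyte markers, so the list overlaps with that marker set. In the averaged comparison of KO with WT, 5 genes of the 8 lists passed, where 0.847% of all genes did. They were 1 of 21 other muscle ligases, 1 of 24 substrates, 1 of 10 kelch adaptors, and 1 higher and 1 lower of 20 upstream genes. None passed of 10 other Asb genes, 13 cullin core genes, 14 genes of ubiquitin and its enzymes, or 16 FoxO targets. Rnf207 (-0.29, adjusted p = 0.00302), Fhl2 (-0.30, adjusted p = 0.00302), a LIM protein that binds MuRF1, Klhl38 (-0.36, adjusted p = 0.00990) and Hdac4 (-0.28, adjusted p = 0.0162) fell, and the growth factor receptor gene Igf1r (0.24, adjusted p = 0.0274) rose. The medians of the lists in that comparison lay between -0.08 and 0.04, against -0.16 for the 10 ligase genes.

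**Figure D4:**
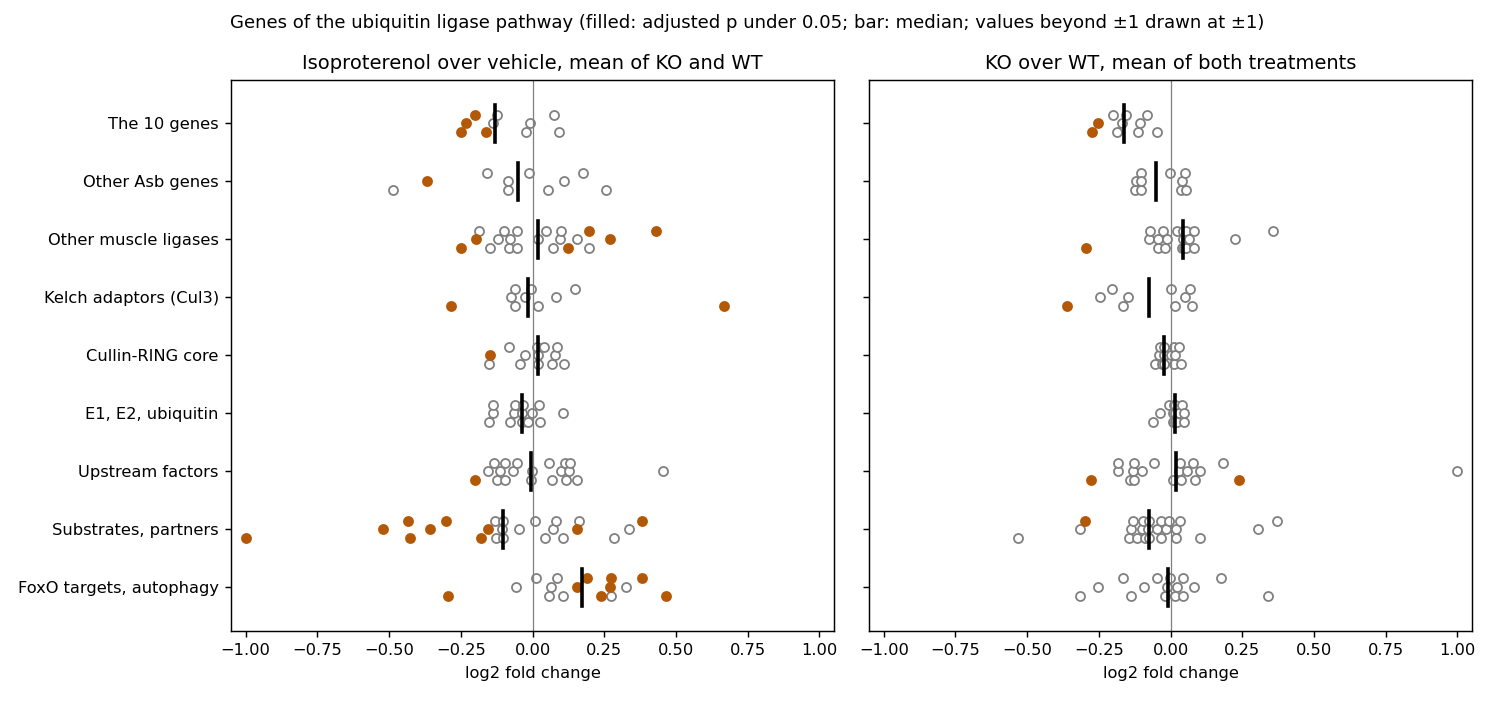
log2 fold changes of the 10 genes and of each pathway list, isoproterenol over vehicle averaged over genotypes on the left and KO over WT averaged over treatments on the right; each point is a gene, filled where it passed at an adjusted p under 0.05, and the bar is the list's median. Values beyond ±1 (Myh7 on the left, Fst on the right) are drawn at ±1. Most FoxO targets lie right of 0 on the left side (median 0.17), and the 10 ligase genes lie left of 0 on the right side (median -0.16).

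Within groups the 10 genes did not vary as a block. Deviations of log2 CPM from the group means gave a median Pearson r of -0.03 over the 45 pairs of members (20 libraries, -0.55 to 0.69), of which 21 were positive. Without both libraries that stood apart the median was 0.07 and 27 of the 45 were positive. The pair most alike over 20 libraries was Trim54 and Trim55 at 0.69, which was 0.32 without those libraries, where Asb10 and Asb14 were most alike at 0.56. Over 20 libraries the pair most opposed was Trim63 and Trim55 at -0.55 (-0.66 without them). The paired atrophy genes Trim63 and Fbxo32 had 0.39. Over all tested genes and 20 libraries Asb11 was most like Bzw2 (0.94, and 0.93 without those libraries), a gene of translation regulation, and Pdk1 (0.86 and 0.89), a kinase that restrains pyruvate dehydrogenase. Trim54 was most like Zrsr1 (0.95, and 0.83 without them), Trim55 like Ccdc141 (0.86 and 0.83) and Asb14 like Nsfl1c (0.84 and 0.82). Asb2 was closest to Higd1b (0.83 and 0.72), Asb15 to Eif4g2 (0.81 and 0.75), Trim63 to Gm43034 (0.81 and 0.81), Asb10 to Taf1d (0.80 and 0.85), Asb18 to Lancl1 (0.80 and 0.83) and Fbxo32 to Sntb2 (0.77 and 0.73). Without those libraries the closest gene stayed first for Asb10, Asb11 and Asb18, while Higd1b ranked 25 for Asb2, Sntb2 10 for Fbxo32, Ccdc141 5 for Trim55, Eif4g2 4 for Asb15, Gm43034 4 for Trim63, Zrsr1 3 for Trim54 and Nsfl1c 2 for Asb14. These values describe likeness over the same 20 libraries, which the points share along with library depth and tissue composition, and carry no test. Each closest gene has the highest r among the 14878 tested genes, and the usual highest r of a tested gene was not computed.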

How the data were processed

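The authors deposited raw counts per gene for 20 libraries from a stranded total RNA kit, with read alignment by HISAT2 (2.1.0) to GRCm38 and counting by featureCounts (1.6.3), according to the submitters' processing notes. Those notes list limma (3.40.6) and R (3.6.0) as well. Annotation release, strand setting and handling of shared reads are not given in the sources used here, so values of paralogs and overlapping genes are uncertain. A few low-count antisense or intronic genes overlap Trim54, Trim55, Fbxo32 and Asb2. Of 55335 IDs, 55154 matched GENCODE vM21, and 0 columns lacked a sample.

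The tests ran in edgeR 4.0.16 under R 4.3.3, with filterByExpr, TMM scaling, and 1 robust quasi-likelihood fit of all 20 libraries with a mean per group (16 residual degrees of freedom), with p-values adjusted by Benjamini-Hochberg over 14878 genes at a threshold of 0.05. CPM use TMM-scaled library sizes. Averaged comparisons are means of 2 contrasts of that fit. Intervals are 95% intervals from the fit's standard errors (SE). Groups came from the labels, and replicate numbers, given in record order, pair nothing. No 2 libraries of a group agreed within sampling noise.

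The members, lists, tests and alternatives were chosen with earlier results of these data known. Named genes were the 10 members whatever their p, up to 4 list genes with the smallest p for isoproterenol averaged over genotypes, up to 2 per list that passed between genotypes, list genes given as not passing, and the closest of 3 genes most like each member. On simulated counts over 14709 genes, 72% of 1.2-fold and 100% of 1.5-fold changes were recovered for isoproterenol averaged over genotypes. For isoproterenol in WT, over 14686 genes, the shares were 22% and 96%. Each simulation changed 200 genes, while the data gave 1304 calls for isoproterenol in WT and 2801 averaged over genotypes. The adjusted p depends on how many genes change, so these shares do not give the recovery in the data. Alternatives used DESeq2 1.42.0, limma-voom in limma 3.58.1, sva 3.50.0, other scalings and filters, and left-out libraries. Promoter windows came from RefSeq on GRCm38.p6. Figures used Python 3.11.15 and matplotlib 3.10.9. One gene of the pathway lists is counted but not reported here by name.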

Additional observations from a re-analysis of the deposited data

Results flagged for a closer look

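In 2 of 40 combinations of gene and group, 1 library stood apart from the other 4 by more than Dixon's 95% critical value of 0.71, where chance flags about 1 in 20, and both concern Asb15. KO isoproterenol replicate 3 measured 26.6 CPM of Asb15, against 19.4 to 21.5 CPM in the other libraries of its group (gap over range 0.7101), and without it Asb15 passed for isoproterenol averaged over genotypes (log2 fold change -0.18, edgeR adjusted p = 0.0148, against -0.14 and adjusted p = 0.0890 with it). That library was picked by its high Asb15 value, so leaving it out can only deepen the fall. Only 1 of 20 fits with a library left out passed (adjusted p up to 0.175), and 0 of 10 other settings did (up to 0.228). WT vehicle replicate 2 measured 31.2 CPM of Asb15, against 24.9 to 26.0 CPM in the other libraries. That library also had the highest Trim54 and Trim55 values of the 20 and the highest cardiomyocyte marker sum. The causes were not tested.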

How the results depend on the processing

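Counts of the 10 genes that passed moved most for the knockout. Under isoproterenol, where edgeR called 1, DESeq2 called 5, no filter on low counts 3, 2 surrogate variables 3 and a fit of only the 2 groups 0. Averaged over treatments, where edgeR called 2, DESeq2, limma-voom and no filter each called 4, 2 surrogate variables and the fit without both libraries that stood apart each called 5, and the fit without robust estimation called 1. For isoproterenol in WT limma-voom called 2 in place of 1. Leaving out each library in turn gave 0 to 1 for isoproterenol in WT, 2 to 4 in KO, 4 to 5 averaged over genotypes, 0 to 2 for the knockout under isoproterenol and 1 to 3 averaged over treatments; under vehicle and for the difference of responses it gave 0 throughout. Over all genes the other settings, left-out libraries aside, gave 15 to 117 calls for the knockout under vehicle (19 in edgeR), 18 to 250 under isoproterenol (27), 104 to 350 averaged (126) and 0 to 34 for the difference of responses (0, with 1142 genes at an unadjusted p under 0.05). For isoproterenol they gave 1300 to 1803 in WT (1304), 1100 to 1871 in KO (1344) and 2727 to 3151 averaged (2801). With a library left out, all-gene calls for isoproterenol were 882 to 1686 in WT, 1001 to 1442 in KO and 2381 to 2872 averaged. For the knockout they were 10 to 55 under isoproterenol and 74 to 143 averaged. Whether rises among the 10 genes go beyond the general rise in calls was not tested. No called gene of the 10 changed direction in any alternative. Sign changes occurred in 21 of 740 recomputations with another setting and in 40 of 1400 with a library left out. Those totals cover all values of the 10 genes, called or not, and every sign change was of a value that did not pass. The cause of these shifts was not tested. In simulated data with 200 changed genes, 1.2-fold changes were recovered in 19% for the knockout under isoproterenol, over 14702 genes. Misses at this size were thus frequent in the simulation. No paired analysis was possible because the replicate numbers were given in record order. The level of Asb2 per kilobase moved to 93.1 CPM with the longest transcript.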
